A study of Mus musculus with 24 samples.

Results

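The 9 genes described here encode surface molecules that other cells show to T cells. They are Vcam1, Icam1, Cadm1, Sdc3, Sdc4, Icosl, Cd40, Cd80 and Cd86, which were picked by name out of 35817 gene symbols in RNA sequencing tables of sorted T cells, several of them because the study names them among its adhesion genes that differed before transplant. They were read in all 24 libraries beside 17 B cell transcripts and 17 macrophage transcripts. The donors were mice of C57BL/6 background aged 8 to 12 weeks. Cat-Tg donors carry a transgene for human beta-catenin that lacks its N terminus, heterozygous, in the p1017 cassette. The WT donors lack the transgene. Pre-tx libraries are CD4+ or CD8+ cells sorted from donor spleens. Post-tx libraries are H-2Kb+ donor cells sorted on day 7 from spleens of lethally irradiated BALB/c recipients, which received CD4+ and CD8+ cells mixed in equal parts together with T cell-depleted WT bone marrow. Each of the 8 groups (2 genotypes, 2 cell types, pre-tx and post-tx) has 3 libraries. The H-2Kb marker is also carried by cells grown from the donor marrow. The labels name no batch, so a batch that went with genotype could not be told apart from it. The paper states that its WT data also appear in other publications of the same laboratory.

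A T cell that meets another cell is held to it and given further signals by pairs of surface proteins. VCAM1 and ICAM1 are immunoglobulin-family proteins bound by the T cell integrins VLA-4 and LFA-1, CADM1 is bound by CRTAM, and the syndecans SDC3 and SDC4 are heparan sulfate proteoglycans. ICOSL binds ICOS, CD40 receives the signal of CD40 ligand on helper T cells, and CD80 and CD86 bind CD28 and CTLA4. B cells, macrophages and dendritic cells are the best known carriers of the costimulatory molecules, and VCAM1 is also carried by endothelium, stromal cells and splenic macrophages, although activated T cells can show ICAM1, CD80 and CD86 themselves.

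The labelled cell types were first checked against Cd4 and Cd8a. Cd8a made up at least 98.96% of the summed Cd4 and Cd8a CPM in 9 CD8+ libraries and at most 3.39% in 9 CD4+ libraries. In the 6 libraries labelled WT pre-tx it made up 49.97% to 63.9% (CD8+) and 52.4% to 65.4% (CD4+), so these go against their labels as sorted single subsets. CPM are estimated counts scaled to a common library size, adjusted by the TMM method. The same 6 libraries had 12100 to 16432 CPM of B cell transcripts and 1906 to 3286 CPM of T cell transcripts, against 506.1 to 3375 and 5396 to 15561 CPM elsewhere. Another library, WT CD8+ post-tx replicate 1, had 1838 CPM summed over 10 integrin and costimulatory receptor genes of T cells, against 5778 and 10181 CPM in the other two of its group. Total estimated counts ran from 11135713 to 50519825, where 3 counts make 0.269 to 0.0594 CPM. The lowest total belonged to Cat-Tg CD4+ post-tx replicate 1.

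**Figure D1:**
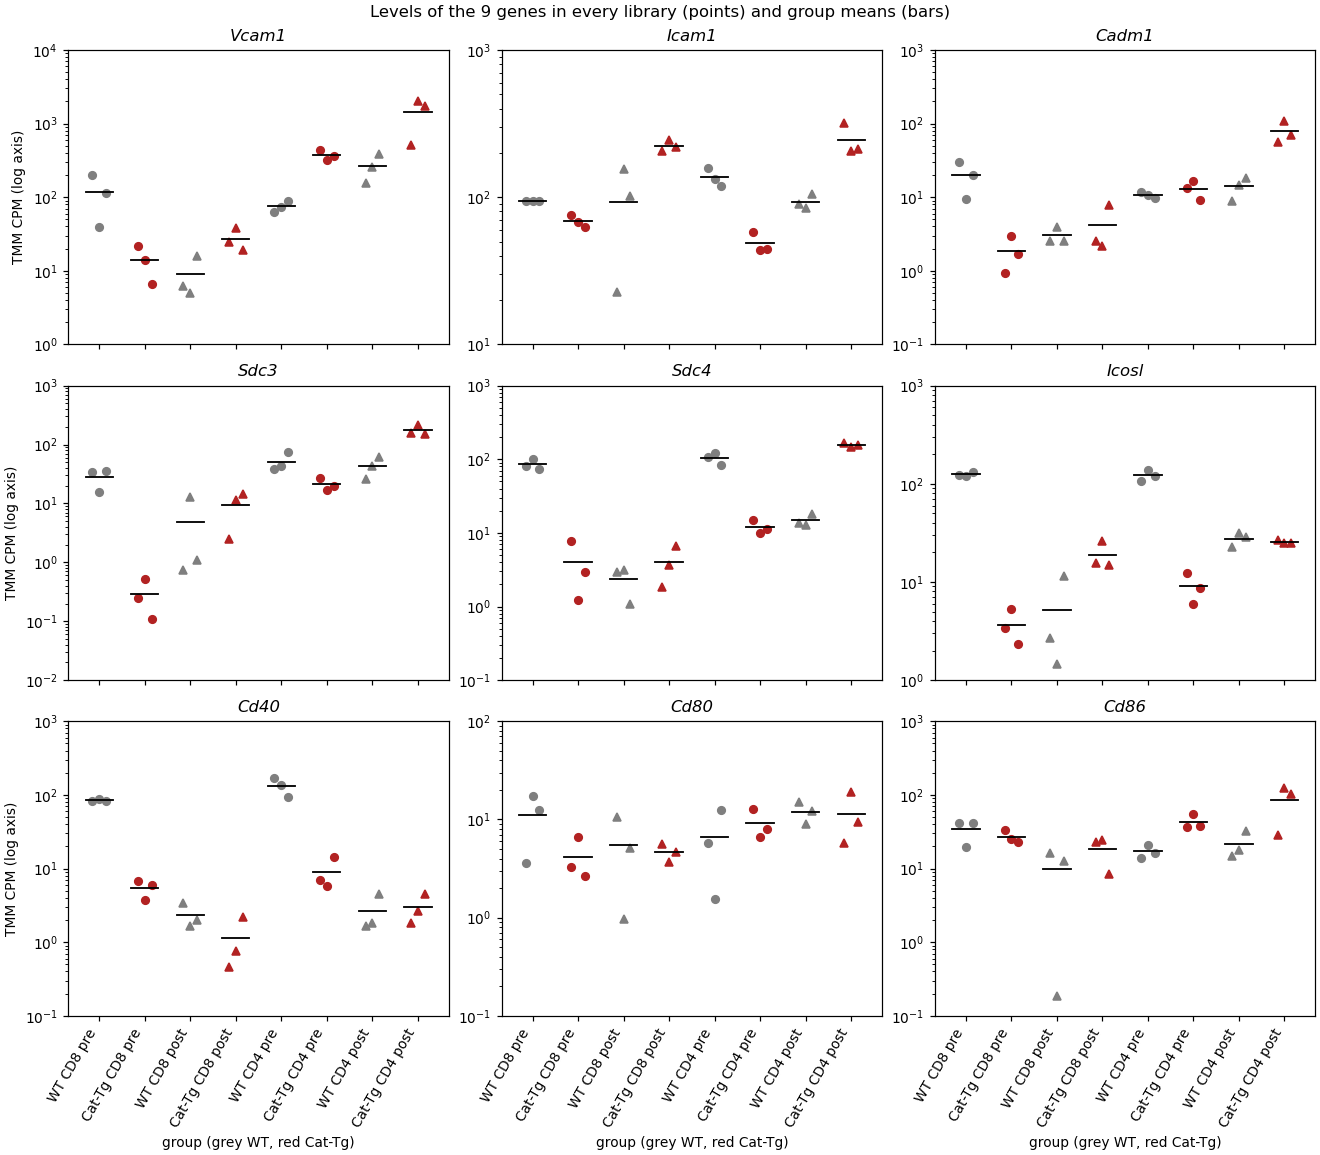
Level of each gene in every library, in TMM-normalised CPM on a log axis, with 3 points per group and a bar at the group mean (grey WT, red Cat-Tg, circles pre-tx, triangles post-tx). Vcam1, Cadm1, Sdc3 and Sdc4 have their highest group mean in Cat-Tg CD4+ post-tx, whereas Icosl and Cd40 have theirs in libraries labelled WT pre-tx.

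In CD4+ post-tx cells, 6 of the 9 genes were higher in Cat-Tg than in WT. They were Vcam1, Icam1, Cadm1, Sdc3, Sdc4 and Cd86, with log2 fold changes from 1.17 to 3.17, and none of the 9 was lower. All 9 passed the filter of more than 1 CPM in at least 3 libraries. The genes were chosen with earlier results of these data known, so post-tx p values may not be independent of that choice. Over all 17227 genes tested in CD4+ cells, 10.2% passed an adjusted p of at most 0.05, and 3.7% passed as higher in Cat-Tg (edgeR quasi-likelihood test with Benjamini-Hochberg adjustment). The median log2 fold change of the 9 genes was 1.73, against -0.19 over all genes tested. The 3 Cat-Tg libraries lay above the 3 WT libraries for 5 of the 9 genes, and groups did not overlap in 27.7% of all genes.

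Vcam1 (chr3:116109949-116129688 of GRCm38, minus strand) encodes the endothelial, stromal and macrophage ligand of the integrin VLA-4. In CD4+ post-tx cells its levels were 506, 2031 and 1725 CPM in Cat-Tg replicates 1, 2 and 3 and 155, 261 and 392 CPM in WT. The lowest Cat-Tg library stood well below the other two but above all WT libraries. The log2 fold change was 2.17 (SE 0.405, edgeR adjusted p = 0.00398). It was 2.57 without Cat-Tg replicate 1 and passed as well. In CD8+ post-tx cells, Vcam1 was at 24.3, 38.3 and 18.9 CPM in Cat-Tg and 6.22, 5.02 and 16.1 CPM in WT. These groups did not overlap either, but the log2 fold change of 1.47 (SE 0.646) did not pass (edgeR adjusted p = 0.232). It was 2.34 without WT replicate 3, the highest WT library, and 1.17 to 1.77 without any other.

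Before transplant, Vcam1 was at 21.6, 14.2 and 6.68 CPM in Cat-Tg CD8+ libraries and at 199, 38.8 and 114 CPM in those labelled WT CD8+. In CD4+ libraries the order was the other way round, with 437, 318 and 360 CPM in Cat-Tg and 63.4, 74.3 and 87.7 CPM in those labelled WT. Groups did not overlap in either case, and the fitted log2 fold changes were -3.04 in CD8+ and 2.54 in CD4+. Because the study's pre-tx comparison helped to choose the genes, pre-tx differences are given here as descriptions, with no p. Post-tx p values are given, but with earlier results of these data known they may not be independent of the choice either.

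Icam1 (chr9:21015985-21028817, plus strand) encodes the ligand of the integrin LFA-1 and is also made by activated lymphocytes. In CD4+ post-tx cells it was at 317, 206 and 212 CPM in Cat-Tg and 90.1, 84.1 and 106 CPM in WT. The ranges were apart, and the log2 fold change was 1.17 (SE 0.243, edgeR adjusted p = 0.00646). CD8+ post-tx libraries held 205, 243 and 219 CPM in Cat-Tg and 22.6, 155 and 102 CPM in WT. The fitted log2 fold change was again 1.17, but with an SE of 0.499 it did not pass (edgeR adjusted p = 0.221), and it was 0.86 without WT replicate 1, the lowest library, and 1.84 without WT replicate 2, the highest of WT. Pre-tx levels spanned less, from 43.6 to 75.7 CPM in Cat-Tg and from 94.0 to 158 CPM in libraries labelled WT, with the Cat-Tg libraries lower in both cell types.

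Cadm1 (chr9:47530173-47857637, plus strand) encodes a homophilic adhesion molecule of the immunoglobulin family. It was at 55.9, 110 and 70.7 CPM in Cat-Tg CD4+ post-tx and 8.98, 14.8 and 18.3 CPM in WT. Every Cat-Tg library exceeded every WT library, with a log2 fold change of 2.27 (SE 0.366, edgeR adjusted p = 0.00173). In CD8+ post-tx libraries Cadm1 stayed between 2.16 and 7.95 CPM, with overlapping genotypes and a log2 fold change of 0.42 (edgeR adjusted p = 0.786). Pre-tx CD4+ levels ran from 9.02 to 16.4 CPM in both genotypes together. In CD8+ pre-tx libraries Cadm1 was at 0.946, 2.95 and 1.68 CPM in Cat-Tg and at 30.4, 9.40 and 19.8 CPM in those labelled WT.

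Of the syndecans, Sdc4 (chr2:164424247-164443887, minus strand) had the larger genotype difference post-tx. This broadly expressed gene, whose product sits in focal adhesions, was at 168, 145 and 156 CPM in Cat-Tg CD4+ post-tx and 13.6, 12.9 and 18.1 CPM in WT. The spread within each group was small against the gap between them. The log2 fold change of 3.17 (SE 0.269, edgeR adjusted p = 3.01e-05) was the highest of the 9 genes in this comparison, and it stayed between 3.09 and 3.29 when each library was left out in turn. In CD8+ post-tx libraries Sdc4 ran from 1.08 to 6.69 CPM, the genotypes overlapped and the log2 fold change was 0.72 (edgeR adjusted p = 0.578).

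Pre-tx, Sdc4 stood the other way round. The libraries labelled WT held 81.2, 102 and 74.1 CPM (CD8+) and 108, 120 and 83.7 CPM (CD4+). Cat-Tg libraries held 7.77, 1.24 and 2.93 CPM (CD8+) and 14.8, 9.96 and 11.3 CPM (CD4+). No Cat-Tg library reached a library labelled WT, and the fitted log2 fold changes were -4.40 in CD8+ and -2.88 in CD4+.

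Sdc3 (chr4:130792537-130826319, plus strand), a syndecan best known from the nervous system and also made by macrophages, was at 159, 211 and 150 CPM in Cat-Tg CD4+ post-tx and 26.3, 42.9 and 61.5 CPM in WT. The groups were apart, with a log2 fold change of 1.78 (SE 0.338, edgeR adjusted p = 0.00426). CD8+ post-tx libraries overlapped widely, with 2.51, 11.3 and 14.6 CPM in Cat-Tg and 0.744, 12.9 and 1.08 CPM in WT. The log2 fold change there was 0.87 (SE 0.957, edgeR adjusted p = 0.648), and 3.38 without WT replicate 2. The lowest levels were in Cat-Tg CD8+ pre-tx, at 0.249, 0.513 and 0.107 CPM, the last of which is 3 counts. Libraries labelled WT CD8+ pre-tx held 15.9 to 34.9 CPM. In CD4+ pre-tx, Cat-Tg held 16.8 to 27.3 CPM and libraries labelled WT 38.2 to 73.3 CPM.

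Icosl (chr10:78069302-78083913, plus strand) encodes the ICOS ligand of B cells and other antigen-presenting cells. In CD4+ post-tx cells it was at 26.6, 24.9 and 25.2 CPM in Cat-Tg and 22.7, 31.2 and 28.5 CPM in WT. The genotypes overlapped, with a log2 fold change of -0.34 (SE 0.288, edgeR adjusted p = 0.536). In CD8+ post-tx cells the levels were 15.8, 26.4 and 14.9 CPM in Cat-Tg and 2.71, 1.47 and 11.4 CPM in WT. All Cat-Tg libraries were above all WT libraries, and the log2 fold change was 1.76 (SE 0.632), but the adjusted p was 0.164 in edgeR. Without WT replicate 3, the highest WT library, the log2 fold change was 3.25 and passed (edgeR adjusted p = 0.0204). In the libraries labelled WT pre-tx Icosl was at 107.7 to 138.7 CPM, and in Cat-Tg pre-tx at 2.32 to 12.4 CPM.

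Cd40 (chr2:165055627-165072948, plus strand), the B cell and antigen-presenting cell receptor for CD40 ligand, split the pre-tx libraries as widely. Libraries labelled WT pre-tx held 82.6, 88.8 and 81.8 CPM (CD8+) and 172, 135 and 93.4 CPM (CD4+). Cat-Tg pre-tx libraries held 6.87, 3.76 and 5.89 CPM (CD8+) and 6.94, 5.72 and 14.4 CPM (CD4+). Post-tx, all 12 libraries lay between 0.456 and 4.55 CPM. The genotypes overlapped there, with log2 fold changes of 0.00 in CD4+ (SE 0.450, edgeR adjusted p = 0.999) and -1.09 in CD8+ (SE 0.582, edgeR adjusted p = 0.320).

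The CD28 ligand genes Cd80 (chr16:38455561-38496335, plus strand) and Cd86 (chr16:36603869-36666081, minus strand) overlapped between all neighbouring groups when these were ordered by mean level. Cd86 was at 28.5, 122 and 102 CPM in Cat-Tg CD4+ post-tx and 14.6, 17.9 and 32.6 CPM in WT. The lowest Cat-Tg library lay within the WT range, and the log2 fold change was 1.73 (SE 0.440, edgeR adjusted p = 0.0205). This call was lost without Cat-Tg replicate 2 (1.35, adjusted p = 0.102) or 3 (1.61, adjusted p = 0.0727), or without WT replicate 1 (1.52, adjusted p = 0.0789) or 2 (1.65, adjusted p = 0.0943), each in edgeR. In CD8+ post-tx cells Cd86 was at 22.6, 24.7 and 8.56 CPM in Cat-Tg and 16.4, 0.184 and 12.7 CPM in WT, where 0.184 CPM is 3 counts. Cd80 ran from 0.98 to 19.2 CPM over all libraries, with the lowest and the highest group mean 2.88-fold apart. Its genotype log2 fold changes post-tx were -0.29 in CD4+ (edgeR adjusted p = 0.834) and -0.33 in CD8+ (edgeR adjusted p = 0.862).

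**Figure D2:**
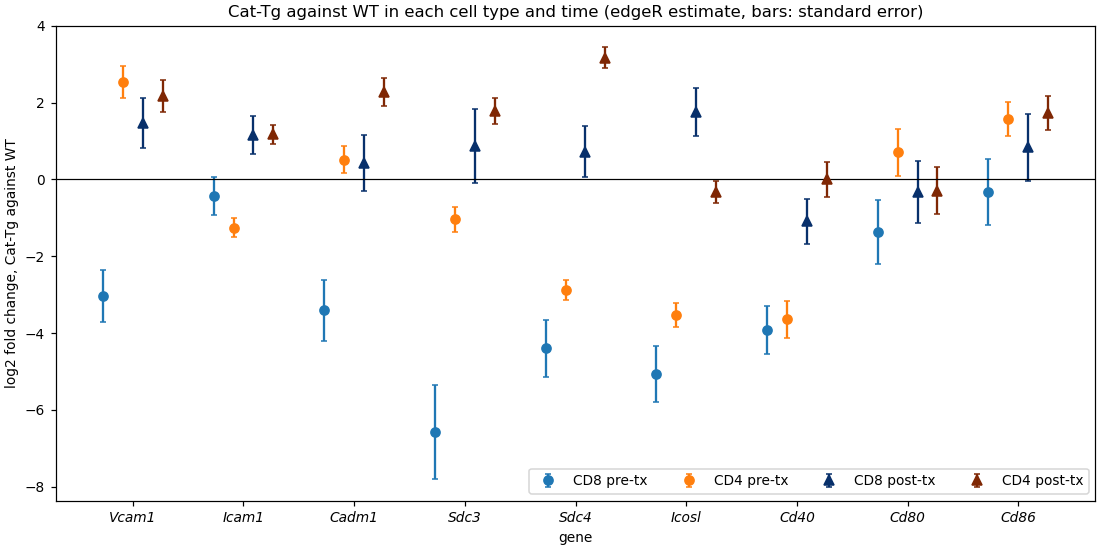
Log2 fold change of Cat-Tg against WT for each gene in the 4 settings, from the edgeR fits, with bars of 1 standard error (circles pre-tx, triangles post-tx). CD4+ post-tx values of Vcam1, Icam1, Cadm1, Sdc3, Sdc4 and Cd86 lie above 0, while the CD8+ pre-tx values of all 9 genes lie below 0.

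In CD8+ post-tx cells none of the 9 genes passed, where 1.67% of 15960 genes did. The count was 0 in edgeR, limma-voom and DESeq2 alike, and 3 genes (Vcam1, Icam1 and Icosl) had an unadjusted edgeR p under 0.05. Those 3 were also the genes whose Cat-Tg libraries all lay above the WT libraries, as against 23.1% of all genes without overlap. Leaving out WT replicate 3 gave 1 call, Icosl.

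Whether the genotype difference differed between CD8+ and CD4+ post-tx cells was tested as an interaction in a fit of all 24 libraries. None of the 9 genes passed, beside 0.629% of all genes. Sdc4 came nearest, with a difference of -2.60 (SE 0.713, edgeR adjusted p = 0.0871), and it passed in DESeq2 (-2.74, adjusted p = 0.0119). Cadm1 (-2.0) and Icosl (1.96) also had an unadjusted p under 0.05. Icosl passed without WT CD8+ post-tx replicate 3 (3.32, edgeR adjusted p = 0.00958).

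Post-tx CD8+ and CD4+ libraries were then compared within each genotype. CD4+ and CD8+ cells were sorted from each mouse, so the libraries of a genotype share 3 recipients, and the fit treats them as independent because the labels do not say whether replicate numbers mark the mouse. In Cat-Tg, 4 of the 9 genes were lower in CD8+ (Vcam1 -5.71, Cadm1 -4.22, Sdc3 -4.20 and Sdc4 -5.26 on the log2 scale), where 6.0% of 19076 genes passed and 4.51% passed as lower. In WT, 5 were lower in CD8+, Icosl (-2.39) besides Vcam1 (-4.87), Cadm1 (-2.21), Sdc3 (-3.15) and Sdc4 (-2.66), where 13.1% of genes passed and 7.16% passed as lower. The largest adjusted p among these calls was 0.0078 (edgeR, Cadm1 in WT). Icam1 passed in neither genotype, with fitted differences of -0.14 in Cat-Tg and 0.00 in WT that changed sign under other settings. CD8+ libraries lay wholly below CD4+ libraries for 6 of the 9 genes in Cat-Tg (Cd80 and Cd86 besides the 4) and for the same 5 called genes in WT, and groups did not overlap in 25.1% and 25.9% of all genes. Without Cat-Tg CD8+ replicate 3, Cd40 also passed in Cat-Tg (-2.25, edgeR adjusted p = 0.0293). The WT calls for Sdc3 (-2.52, adjusted p = 0.0547) and Cadm1 (-1.99, adjusted p = 0.0575) were lost in edgeR without WT CD8+ replicate 3. Sdc3 in WT was -5.38 without WT CD8+ replicate 2 and -2.42 without replicate 1, and Icosl was -3.65 without replicate 3 and -1.83 without replicate 2. In Cat-Tg, Cadm1 was -4.99 without CD8+ replicate 3 and -3.64 without replicate 2. Fitting the 6 WT post-tx libraries alone left 3 calls, Vcam1, Cadm1 and Sdc4. With the replicate number as a block in that fit, 0 of the 9 passed in WT (edgeR adjusted p 0.0642 for Vcam1, 0.136 for Cadm1, 0.107 for Sdc3, 0.117 for Sdc4 and 0.125 for Icosl), where 0 of 13263 genes passed and 2512 had an unadjusted p under 0.05. In Cat-Tg 5 of the 9 passed with the block.

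Pre-tx, all 9 fitted differences in CD8+ were negative, and 6 were past the threshold (Vcam1, Cadm1, Sdc3, Sdc4, Icosl and Cd40, -3.04 to -6.57), in a comparison where 8.97% of genes passed and 4.47% passed as lower. In CD4+, 5 genes were past it as lower (Icam1, Sdc3, Sdc4, Icosl and Cd40, -1.04 to -3.64) and 2 as higher (Vcam1 2.54 and Cd86 1.57), where 20.4% of genes passed, 7.18% as lower and 13.3% as higher. Groups did not overlap for 7 of the 9 genes in each cell type, and in 29.5% (CD8+) and 35.7% (CD4+) of all genes. These are the contrasts behind the choice of genes, so the counts are a description of fitted values and not tests. The fitted changes from pre-tx to post-tx share these libraries. In WT CD8+ they ran from -5.06 (Sdc4) to 0.11 (Icam1), and 5 genes were past the threshold as lower, where 23.6% of genes passed and 10.4% passed as lower. In WT CD4+ Vcam1 was past it as higher (1.96) and Sdc4, Icosl and Cd40 as lower (-2.68, -2.02 and -5.54), where 24.3% passed (14.7% higher, 9.61% lower). In Cat-Tg CD4+ 6 genes were past it as higher, 1.18 (Icosl) to 3.38 (Sdc4), and Cd40 as lower (-1.89), where 45.2% passed (16.2% higher, 28.9% lower). In Cat-Tg CD8+ Icam1 (1.70), Sdc3 (5.03) and Icosl (2.38) were past it as higher and Cd40 (-2.22) as lower, where 13.9% passed (8.72% higher, 5.23% lower).

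Summed macrophage transcripts were high where Vcam1, Cadm1 and Sdc3 were high (r of log2 CPM over the 24 libraries 0.916, 0.937 and 0.94), and summed B cell transcripts where Cd40 was (0.937). With the B cell sum r was 0.244 for Vcam1, 0.246 for Cd86 and 0.046 for Cd80, and with the macrophage sum 0.174 for Cd40. After group means were removed, r with the macrophage sum was 0.447 for Vcam1, 0.474 for Cadm1 and 0.713 for Sdc3. For Cd40 with the B cell sum it was then 0.339. In bulk libraries, fewer cells of a type and less RNA per cell cannot be told apart. The macrophage list (among others C1qb, a complement subunit, and Csf1r, the receptor of the macrophage growth factor CSF1) summed to 10363 to 11610 CPM in Cat-Tg CD4+ post-tx and 1165 to 2381 CPM in WT. The ranges did not overlap, and 14 of its 17 genes passed as higher in Cat-Tg, with a list median of 2.39. C1qb (2.63) and Csf1r (3.05) were among them. Marco, Vsig4 and Timd4 did not pass. In CD8+ post-tx the list summed to 302 to 480.4 CPM in Cat-Tg and 139 to 338.6 CPM in WT, and none of the 16 genes tested passed, with 3 at an unadjusted edgeR p under 0.05.

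Between CD8+ and CD4+ post-tx cells, 15 of the 17 macrophage genes were lower in CD8+ in Cat-Tg (median -4.95) and 14 in WT (median -3.18). In Cat-Tg CD8+ pre-tx, where Sdc3 was at its lowest, the macrophage list summed to 77.7 to 102 CPM and Vsig4 was at 0 in all 3 libraries. B cell transcripts passed in both directions in CD4+ post-tx, 4 higher and 2 lower in Cat-Tg of 17, and summed to 1634 to 3375 CPM in Cat-Tg against 726 to 811 CPM in WT. Ighm made up 1536 to 3251 CPM of the Cat-Tg sum, and Cd22 and Cr2 were the genes that passed as lower. Dendritic cell transcripts summed to 278 to 370 CPM in Cat-Tg CD8+ post-tx and 55.1 to 116 CPM in WT, of which Itgax, an integrin subunit that activated CD8+ T cells also make, was 269 to 355.8 and 39.6 to 100.8 CPM. Itgax was the only gene of that list that passed by genotype in CD8+ post-tx. In CD4+ post-tx 2 of its 9 genes passed as higher, Batf3 and Clec10a. Neutrophil and monocyte transcripts summed to 583.5 to 1650 CPM in the post-tx libraries, and 1 of 9 genes passed as higher in each cell type, Lyz2 in CD8+ and Itgam in CD4+. Most of the CD8+ post-tx sums was Ly6c2, at 842 to 1319 CPM in WT and 678 to 1067 CPM in Cat-Tg. In CD4+ post-tx Ly6c2 was at 153 to 155 and 124 to 193 CPM. In Cat-Tg pre-tx it was at 621 to 888 CPM in CD8+ and 40.9 to 56.8 CPM in CD4+. The CD8+ post-tx sums therefore say little about the rest of this list. Between CD8+ and CD4+ post-tx, 5 of the 9 genes were lower in CD8+ in WT and 1 in Cat-Tg, and 1 was higher in each. Stromal and endothelial transcripts stayed between 37.0 and 199.8 CPM in all groups, and 1 of them, Kdr, passed as lower in Cat-Tg CD4+ post-tx. Most of these sums was Pecam1, at 33.7 to 188.8 CPM, so they say little about the rest of the list. Of 12 T cell transcripts, 2 were lower in Cat-Tg CD4+ post-tx, Cd247 and Trac. Over all genes 10.2% passed by genotype in CD4+ post-tx and 1.67% in CD8+ post-tx. The part of any of these cell types in the differences above was not tested.

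**Figure D3:**
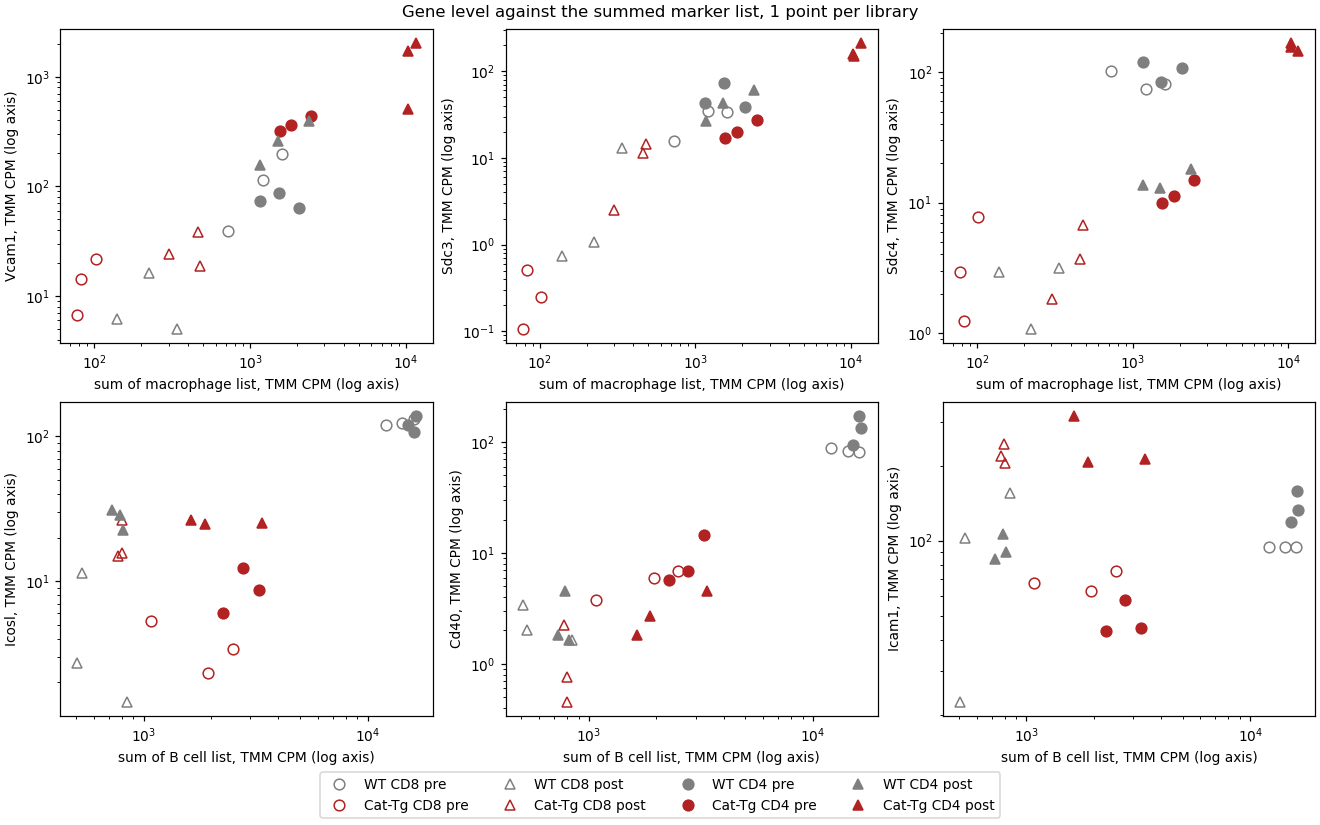
Level of 6 of the genes against the summed macrophage list (Vcam1, Sdc3, Sdc4) or the summed B cell list (Icosl, Cd40, Icam1), 1 point per library, all axes log-scaled CPM. Vcam1 and Sdc3 rise with the macrophage sum over the libraries, whereas Sdc4 is high at middling sums in the 6 libraries labelled WT pre-tx.

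Set against the macrophage list, the genes differed. Cadm1 was at 4.68 to 35.75 CPM per 1000 CPM of the list over all 24 libraries. In CD4+ libraries alone it kept to 4.89 to 10.6, over both genotypes and times. Vcam1 per 1000 CPM was 133 to 173 in WT CD4+ post-tx and 48.8, 175 and 166 in Cat-Tg CD4+ post-tx, so the genotypes overlapped on this scale although the levels did not. It was 177 to 206 in Cat-Tg CD4+ pre-tx and 30.6 to 64.0 in libraries labelled WT CD4+ pre-tx. Sdc3 was lower per 1000 CPM in Cat-Tg CD4+ post-tx (14.4 to 18.2) than in WT (22.6 to 28.5).

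On this scale Sdc4 differed from these, although r of its log2 CPM with the macrophage sum over the 24 libraries was 0.797. With the B cell sum its r was 0.731, and with the T cell sum -0.738. After group means were removed, r of Sdc4 was 0.265 (macrophage sum), 0.489 (B cell sum) and 0.228 (T cell sum). Per 1000 CPM of the macrophage list, Sdc4 stood at 12.5 to 16.2 in Cat-Tg CD4+ post-tx and 7.60 to 11.7 in WT. These ranges did not overlap, but in libraries labelled WT pre-tx it stood at 50.5 to 140. Icam1 ranged from 17.8 to 824 per 1000 CPM of the macrophage list and was highest in Cat-Tg CD8+ pre-tx libraries, where that list was lowest. Over the 24 libraries r of log2 Icam1 with the summed list was 0.404 for macrophages and 0.034 for B cells.

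The B cell list was highest in the libraries labelled WT pre-tx, as were Icosl and Cd40. All 17 of its genes were past the threshold as lower in Cat-Tg in both pre-tx comparisons, with medians of -4.70 (CD8+) and -3.23 (CD4+). Per 1000 CPM of this list, Cd40 was at 5.09 to 10.6 in libraries labelled WT pre-tx, 2.51 to 4.41 in Cat-Tg pre-tx and 0.57 to 2.88 in Cat-Tg post-tx. Icosl was at 6.68 to 9.96 in libraries labelled WT pre-tx and 1.19 to 4.91 in Cat-Tg pre-tx, but at 27.9 to 43.0 in WT CD4+ post-tx and 19.4 to 33.0 in Cat-Tg CD8+ post-tx. In Cat-Tg CD4+ post-tx Icosl was at 7.46 to 16.3, and in WT CD8+ post-tx, where the B cell list was lowest, at 5.35, 1.74 and 21.4. Cd40 was at 1.96 to 6.68 in WT post-tx, which overlaps the libraries labelled WT pre-tx.

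These orders depended on Ighm. Without it, Cd40 per 1000 CPM of the list was 9.99 to 18.5 in libraries labelled WT pre-tx and 9.03 to 17.9 in Cat-Tg pre-tx, and the ranges overlapped. In Cat-Tg CD4+ post-tx it was 18.7 to 36.6, above all libraries labelled WT pre-tx. Icosl was 11.6 to 18.1 in libraries labelled WT pre-tx and 6.42 to 22.1 in Cat-Tg pre-tx, so its separation was lost as well. Over the 8 groups the highest mean of Icosl was then 35.2 times the lowest, and that of Cd40 3.82 times.

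The T cell receptors of these ligands gave 1 call by genotype post-tx. Of 10 partner genes (the integrin subunits Itga4, Itgb1, Itgb7, Itgal and Itgb2, with Crtam, Icos, Cd40lg, Cd28 and Ctla4), 1 passed in CD4+ post-tx, where 4 had an unadjusted edgeR p under 0.05, and none in CD8+ post-tx, where 3 did. Over all genes 10.2% passed in CD4+ and 1.67% in CD8+, so 1 of 10 in CD4+ is near the share of all genes. The 4 genes in CD4+ were Icos (-1.44, adjusted p = 0.0591), Ctla4 (-1.04, adjusted p = 0.0680), Cd28 (-0.70, adjusted p = 0.176) and Crtam, all with lower fitted values in Cat-Tg. Pre-tx, 6 of the 10 were past the threshold as higher in Cat-Tg CD4+ (Itga4, Itgb1, Icos, Cd40lg, Cd28 and Ctla4, 0.99 to 4.12). There 20.4% of all genes passed, 13.3% as higher. The libraries labelled WT pre-tx hold fewer T cell transcripts, and the part of this in these differences was not tested. The gene that passed was Crtam, the receptor of CADM1. It was at 0.481, 2.15 and 0.0676 CPM in Cat-Tg CD4+ post-tx and 15.4, 9.02 and 10.98 CPM in WT. The lowest of these values lies within the range that 3 counts make. The groups were apart, with Crtam lower in Cat-Tg (-3.86, edgeR adjusted p = 0.00654), while Cadm1 was higher. Crtam was also the 1 partner gene whose genotype difference passed as differing between CD8+ and CD4+ (4.57, edgeR adjusted p = 0.0169), at 84.3, 86.7 and 65.2 CPM in Cat-Tg CD8+ post-tx and 42.8, 19.1 and 62.2 CPM in WT. Over all genes 0.629% passed as differing. Itgb1, whose product pairs with that of Itga4 in the VCAM1 receptor, was lower in CD8+ than in CD4+ in WT post-tx (-2.21, edgeR adjusted p = 0.00146).

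Of 29 other adhesion and costimulatory ligand genes, 25 were tested in CD4+ and 1 passed, as higher in Cat-Tg CD4+ post-tx. Over all genes 10.2% passed there and 3.7% passed as higher, so the list was not above the share of all genes. The gene was Nectin4, a nectin that binds TIGIT, at 12.8, 9.50 and 6.17 CPM in Cat-Tg and 0.671, 0.303 and 0.294 CPM in WT (4.24, edgeR adjusted p = 0.00398). None of 21 tested in CD8+ post-tx passed, where 1.67% of all genes did, with 3 at an unadjusted edgeR p under 0.05. The list median in CD4+ post-tx was -0.26. Cd274, the gene of PD-L1, was lower in CD8+ than in CD4+ in both genotypes (-2.56 in Cat-Tg, -2.40 in WT, edgeR adjusted p = 0.00161 and 0.00177), and at 46.6, 98.7 and 112.7 CPM against 39.5, 28.5 and 33.7 CPM its genotype difference in CD4+ did not pass (1.10, edgeR adjusted p = 0.126). Sdc1, another syndecan, was lower in CD8+ than CD4+ in Cat-Tg (-4.39, edgeR adjusted p = 0.00369), and Icam2 was higher in CD8+ in WT (1.25, edgeR adjusted p = 0.00729). Sdc1 was at 0.326, 0.0732 and 0.0322 CPM in Cat-Tg CD8+ post-tx and 3.37, 0.709 and 5.32 CPM in CD4+. The lowest of these lies below the CPM that 3 counts make. The ligand genes Cd48 and Vsir, both made by T cells, had the highest mean levels of the list and passed in none of these comparisons.

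A further list of 10 genes holds the study's other adhesion genes, mostly class II MHC, and was chosen from these samples, so its direction is not independent evidence. In CD4+ post-tx 6 of them were higher in Cat-Tg, among them H2-Ab1 (2.49, edgeR adjusted p = 0.000193) and Itgam (1.60, adjusted p = 0.0447), and Cd22 was lower (-1.09, adjusted p = 0.0183).

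The genes whose levels ran most like each member over the 24 libraries were sought among 16754 protein-coding genes. Pearson's r of log2 CPM is given as a description, since libraries of a group are alike and share their depth and cell mixture. Vcam1 ran with Slc40a1 (0.96) and Mrc1 (0.954), the iron exporter and mannose receptor of macrophages, and with Aif1 (0.951). Sdc3 ran with C1qb (0.938), Hmox1 (0.936) and Asb2 (0.936), and Cadm1 with Abcc3 (0.916) and Gm5150 (0.912). After group means were removed, r was 0.824, 0.772 and 0.366 for Vcam1 with these 3 genes, 0.72, 0.614 and 0.431 for Sdc3, and 0.544 and 0.643 for Cadm1 with Abcc3 and Gm5150.

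The other genes had other neighbours. Sdc4 ran with Pld4 (0.943) and Fgd2 (0.943), and within groups r was 0.34 and 0.614. Cd40 ran with Bcar3 (0.964) and with the B cell genes Fcer2a (0.95) and Spib (0.949). Within groups r of Cd40 was 0.46 with Bcar3, 0.058 with Fcer2a and -0.223 with Spib. Icosl ran with Swap70 (0.943), Plcg2 (0.906) and Man1a (0.894), and within groups r was 0.582, 0.441 and 0.676.

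Icam1 ran with Dnm2 (0.951), Pxn (0.938) and Man2b2 (0.928), and r with Dnm2 was 0.961 within groups. The low Icam1 value of WT CD8+ post-tx replicate 1 enters these r, and its weight was not tested. Within groups r of Icam1 was 0.813 with the T cell sum and 0.601 with the macrophage sum. Over the 24 libraries these were 0.04 and 0.404. Cd86 ran with Vps26a (0.975), Wdr11 (0.953) and Asah1 (0.946). The 3 counts of Cd86 in WT CD8+ post-tx replicate 2 enter these r, and their weight was not tested either. Cd80, the gene with the least group pattern, had the lowest values, with Stau2 (0.801), Gjb2 (0.782) and Dpy19l3 (0.761).

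Levels can be compared between genes only per transcript length, in TPM. In the libraries labelled WT pre-tx Cd40 was the highest of the 9, at 124.9 ± 8.57 TPM (SD, n = 3) in CD8+ and 127 ± 30.4 TPM in CD4+. In Cat-Tg CD4+ post-tx it was the lowest, at 3.65 ± 2.24 TPM, and Vcam1 was the highest at 512 ± 277 TPM, ahead of Icam1 at 111 ± 15.4 TPM and Sdc4 at 74.2 ± 3.26 TPM. Vcam1 was also the highest in the other CD4+ groups outside the libraries labelled WT pre-tx. Icam1 was the highest in the remaining CD8+ groups, at 21.4 ± 2.95 TPM in Cat-Tg pre-tx, 78.5 ± 3.10 TPM in Cat-Tg post-tx and 23.2 ± 15.2 TPM in WT post-tx.

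For 7 of the genes a single transcript held at least 86.4% of the estimated counts summed over the libraries, from Icosl-201 to Sdc4-201 at 100%. Cadm1 was split over Cadm1-203 (44.4%), Cadm1-209 (16.2%), Cadm1-208 (16.0%) and Cadm1-202 (14.2%). Cd40 was divided as well, and its division differed between the libraries. Cd40-201 keeps exon 7, which Cd40-202 leaves out, and Cd40-203 leaves out exon 6. In the first line of each pair the skipped exon is in capitals between flanking exon bases, and the second line gives the same flanks joined, read from GENCODE M21 transcripts (mouse GRCm38, chromosome 2, plus strand).
Cd40-201 exon 7, chr2:165069629-165069715: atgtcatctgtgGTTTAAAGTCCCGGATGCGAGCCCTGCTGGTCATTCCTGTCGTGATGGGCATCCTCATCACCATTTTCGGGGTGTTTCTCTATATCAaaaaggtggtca
Cd40-202 junction: atgtcatctgtgaaaaggtggtca
Cd40-201 exon 6, chr2:165066503-165066564: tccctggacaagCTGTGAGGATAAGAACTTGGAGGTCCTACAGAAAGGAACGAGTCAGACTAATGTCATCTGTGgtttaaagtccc
Cd40-203 junction: tccctggacaaggtttaaagtccc

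Exon 7 has 87 bases, which is a multiple of 3, and exon 6 has 62, which is not. Cd40-202 held 39.0% to 52.2% of Cd40 counts in the 6 libraries labelled WT pre-tx, at 1884 to 3156 counts each. In Cat-Tg pre-tx it held 0% in 2 of the 3 libraries of each cell type and 13.2% (CD8+) or 28.8% (CD4+) in the third, at 88 to 321 counts. Cd40-201 held 54.7% to 99.4% there, against 13.5% to 34.4% in the libraries labelled WT pre-tx, so neither share overlapped between the genotypes. The plot of Cd40 transcripts by library shows the same split. Post-tx, with 14.2 to 201.8 counts a library, Cd40-202 was at most 0.0063% in all libraries but 2, Cat-Tg CD4+ replicate 1 (62.9% of 19.4 counts) and replicate 3 (5.35%). Cd40-201 and Cd40-202 also differ in the length of their 3' ends, and Kallisto divides reads that fit several transcripts, so these shares are estimates whose error the tables do not give. No test was made on them, and the depth of Cd40 differed along with the share.

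**Figure D4:**
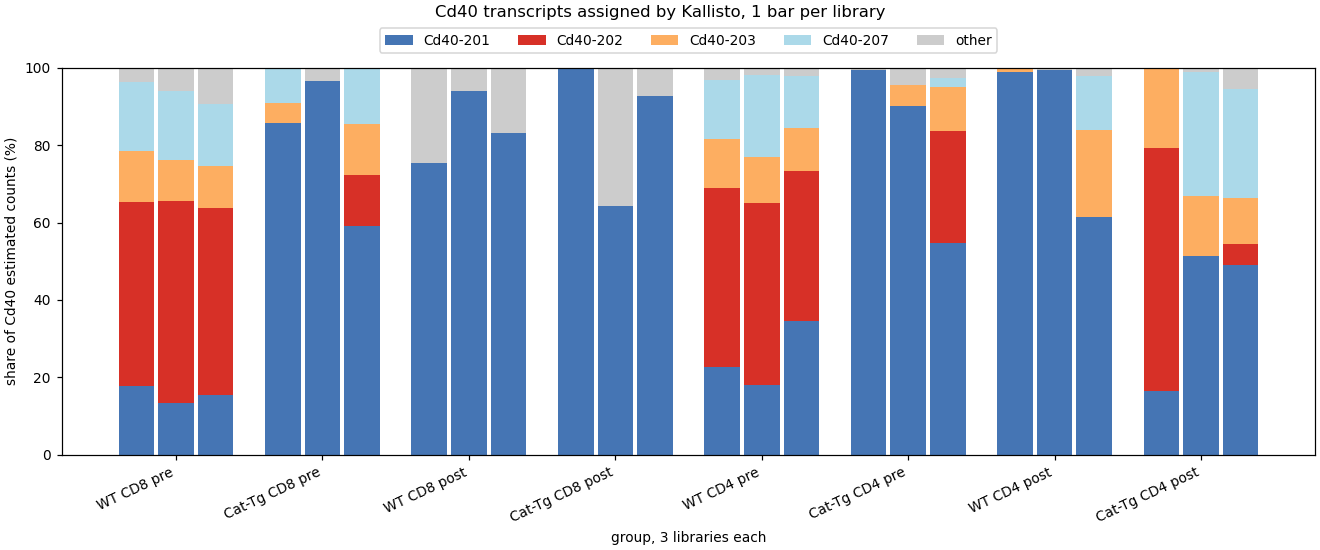
Share of each library's Cd40 estimated counts given to 4 transcripts and to all others, 1 bar per library in order of replicate number, 3 bars per group. The red share of Cd40-202 lies between 39.0% and 52.2% in the 6 libraries labelled WT pre-tx and is 0% in 2 of 3 libraries of each Cat-Tg pre-tx group.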

How the data were processed

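For each library the authors deposited the Kallisto 0.46.2 table, which gives per transcript an estimated count without normalization, the TPM (that count per effective length, scaled within the library), the length and the effective length. The submitters' processing notes also list limma and the build mm9, and the release of the index is not given in the sources used here. Of 117497 transcripts 116374 matched GENCODE M21 (GRCm38) by identifier, holding 99.57% to 99.75% of counts. Estimated counts were summed to 35817 gene symbols and rounded. TPM served to compare genes and in an alternative.

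Genotype and time were fitted in edgeR 4.0.16 (R 4.3.3) on 12 libraries, separately for CD8+ and CD4+ cells (TMM, robust quasi-likelihood, more than 1 CPM in at least 3 libraries), and on all 24 for CD8+ against CD4+ and the interaction. P values were adjusted by Benjamini-Hochberg over all genes tested, and a gene passed at 0.05 or less. SE is the absolute log2 fold change over the square root of F. CPM in the text use TMM over the 24 libraries, and correlations log2 CPM with a prior count of 2. The authors deposited 3 libraries per group. Replicate pairs differed by 53.4 to 884 times the sampling variance, so none was a copy. Intervals from 3 counts cover counting error only.

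The members and lists were chosen with earlier results of these data known. The genes named are the 9 members, the 3 most alike protein-coding genes of each (some are not reported here), up to 4 genes of each list by mean CPM, genes of a list that passed where 5 or fewer did, and transcripts with at least 10% of a member's counts. Genes named beyond these were chosen after their values were seen. Alternatives were limma-voom 3.58.1, DESeq2 1.42.0, other scalings and filters, counts from length-scaled TPM, fits of the compared libraries alone, a replicate block, fold thresholds and each library left out. The code was tested on simulated data.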

Additional observations from a re-analysis of the deposited data

Results flagged for a closer look

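The genotype difference of 5 genes pointed in opposite directions in 2 settings, with every Cat-Tg library on one side of the WT libraries in each; these differences between settings were not tested. For Vcam1 the log2 fold change in CD8+ cells was -3.04 pre-tx and 1.47 post-tx, and pre-tx it was -3.04 in CD8+ and 2.54 in CD4+. For Icam1 it was -0.43 pre-tx and 1.17 post-tx in CD8+, and -1.26 pre-tx and 1.17 post-tx in CD4+. In CD4+ cells Sdc3 went from -1.04 to 1.78 and Sdc4 from -2.88 to 3.17, and in CD8+ cells Icosl went from -5.06 to 1.76. All of these rest on the libraries labelled WT pre-tx, whose Cd4 and Cd8a levels go against their labels.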

How the results depend on the processing

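The members that passed in CD4+ post-tx numbered 6 under every other test, scaling, filter and fit tried, 5 to 6 with a library left out, and 3 (Vcam1, Cadm1, Sdc4) where the log2 change also had to reach 2 in size. In CD8+ post-tx the count was 0, or 0 to 1 with a library left out. For CD8+ against CD4+ in WT it was 5, 3 with the compared libraries alone and 3 to 5 with a library left out. The interaction count was 0, 1 in DESeq2 and 0 to 1 with a library left out. Replicate numbers gave no consistent sign of pairing the samples (r of same-numbered libraries -0.185 to 0.164, and in no comparison above 0.1 for all 3). For Cat-Tg against WT in CD4+ post-tx, r was above 0.1 for 2 of the 3 (0.146 and 0.141). For WT CD8+ against CD4+ it was so for 1 (0.164). With the replicate block in the fit of the compared libraries, the WT count of CD8+ against CD4+ was 0 (0 genes of 13263 in all, 2512 at an unadjusted edgeR p under 0.05), and the CD4+ post-tx count was 6. Over all genes, the calls ranged between the alternatives with no library left out from 30 to 1361 in CD8+ post-tx (266 as reported). They ranged from 1017 to 2674 in CD4+ post-tx (1751) and from 2 to 714 for the interaction (120). For CD8+ against CD4+ they ranged from 862 to 1987 in Cat-Tg (1145) and from 0 to 3851 in WT (2507). The highest were mostly in DESeq2. With 1 library left out, the calls went from 5 to 571 in CD8+ post-tx and from 772 to 1842 in CD4+ post-tx. They went from 722 to 998 and 1583 to 3357 for CD8+ against CD4+ in Cat-Tg and WT, and from 28 to 354 for the interaction. Library totals without TMM moved the median of all genes from -0.03 to -0.78 in WT CD8+ against CD4+ and the share of calls that were higher from 45.5% to 11.6%. In Cat-Tg the same comparison went from 0.06 to -0.21 (24.9% to 11.6%), the interaction from 0.05 to 0.49 (47.5% to 84.3%) and CD8+ post-tx from -0.18 to 0.02 (65.8% to 84.3%). DESeq2 size factors moved CD4+ post-tx from -0.19 to -0.06, CD8+ post-tx to -0.29, the WT comparison to 0.14 (56.3%) and the interaction to -0.10 (28.3%). Library totals also moved the median of the 9 genes, post-tx against pre-tx in WT CD8+, from -2.62 to -3.66. Without Ighm the highest over lowest group ratio to the B cell list was 35.2 for Icosl and 3.82 for Cd40. Of 981 further values of single genes, 902 kept their call or, in the comparisons not tested, stayed within 1 SE. In the tested comparisons 40 changed sign, all of them uncalled, 16 lost a call and 8 gained one. The other 15 moved by more than 1 SE in comparisons not tested, where sign changes were not counted. Among these, library totals took Icam1 from 0.11 to -1.04 (WT CD8+, post-tx against pre-tx). Length-scaled TPM took Cadm1 from 0.51 to -0.06 (CD4+ pre-tx, Cat-Tg against WT).

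The sign changes in the tested comparisons were these, as log2 fold changes. In CD8+ post-tx, Cd80 was 0.07 (length-scaled TPM), 0.18 (limma-voom) and 0.18 (replicate block), with a range of -0.72 to 0.61 with a library left out, and Cadm1 ranged from -0.31 to 0.78. In CD4+ post-tx, Cd40 was 0.00 (at least 10 counts) and -0.05 (library totals), ranging from -0.38 to 0.55, and Cd80 ranged from -0.89 to 0.01. In CD8+ against CD4+, Icam1 was 0.00 without a filter in Cat-Tg (range -0.25 to 0.25). In WT it was 0.23 (DESeq2 and its size factors), 0.01 (at least 10 counts, or compared libraries alone), 0.05 (length-scaled TPM) and 0.08 (no filter), ranging from -0.45 to 0.64. Cd40 there was 0.01 (DESeq2 and its size factors) and 0.70 (length-scaled TPM), ranging from -0.43 to 0.44. In the interaction, Icam1 was 0.40 (library totals), 0.27 (limma-voom) and 0.06 (replicate block), ranging from -0.73 to 0.36. Cd80 was 0.39 (length-scaled TPM), 0.10 (library totals) and 0.32 (limma-voom), ranging from -0.85 to 0.61. Cd86 was 0.14 (limma-voom), and Sdc3 ranged from -1.69 to 1.27. The cause was not tested. Depth limits the low genes most: Sdc3 in Cat-Tg CD8+ pre-tx and Cd40 post-tx rest on few counts.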
